A study of Mus musculus with 11 samples.

Results

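The genes described here encode the voltage-gated sodium channel subunits Scn4a, Scn2b, Scn3b and Scn4b and the muscle chloride channel Clcn1. The genes were chosen with earlier results of these data known. Their probe sets were then found by gene symbol in the array's probe annotation, whatever their signals. Of the 5 genes, 4 had a listed probe set, with 7 probe sets in all among the 45101 of the array and the 18194 genes that the annotation names singly. Scn2b had 3 probe sets, Scn3b had 2, and Scn4b and Clcn1 had 1 each, while Scn4a was matched to no listed probe set and is not analysed here.

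RNA of the tibialis anterior muscle of mice was measured on 11 one-colour Affymetrix arrays in 4 groups. The mutant mice were runx1f/-; MCK::cre, with a floxed and a null allele of the transcription factor gene Runx1 and Cre recombinase driven by the promoter of muscle creatine kinase, which is active in muscle fibres and the heart. Their muscle was denervated (3 arrays) or innervated (2 arrays). Control mice were runx1f/-, so they also lacked 1 working copy of Runx1, and their muscle was likewise denervated (3 arrays) or innervated (3 arrays). Denervation lasted 3 days by the titles, but 5 days by the treatment note attached to denervated control 3. Age, strain and the number of animals behind an array are not given in the labels, so a p-value measures only the spread between these samples, which may be technical. Since Cre is present in mutant mice alone, its own effect and that of deleting Runx1 cannot be told apart. Array medians were 442.5 to 604.6 intensity units, and precision is limited by how few arrays there are. Runx1 signal was 20403 to 23185 in denervated mutant, 288 to 395 in innervated mutant, 23499 to 25898 in denervated control and 179 to 519 in innervated control muscle, and the denervated genotypes differed by -0.20 (log2, limma adjusted p = 0.884). These are the values of the brightest of its 6 probe sets. A dimmer one, which was chosen after its values were seen, averaged 1374 in denervated mutant and 2534 in denervated control muscle, a difference that did not pass (log2 -0.83, limma adjusted p = 0.165). It rose with denervation in control muscle (1.29, limma adjusted p = 0.00177) and changed by -0.14 in mutant muscle (limma adjusted p = 0.759), and the interaction of -1.43 did not pass (limma adjusted p = 0.22). The position of the Runx1 probe sets with respect to the floxed region is not known here, so they do not check the deletion.

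As background, the action potential of a muscle fibre is carried by a pore-forming sodium channel alpha subunit (Scn4a in adult muscle), and small beta subunits with an immunoglobulin-like domain change its gating and its place in the membrane. The chloride channel Clcn1 supplies most of the resting conductance of the fibre and damps repeated firing, and its loss causes myotonia in mice and humans. Denervated fibres are known to lose resting chloride conductance and to become spontaneously excitable. Signals are linear intensities that the authors had scaled to the same trimmed mean on each array. Changes are differences of log2(signal + 16) from a limma fit over all 11 arrays, and a change was called when its Benjamini-Hochberg adjusted p over 26170 tested probe sets was below 0.05.

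Scn4b and Clcn1 fell with denervation in both genotypes, Scn3b rose on its brighter probe set in both, and no Scn2b probe set passed the test. In mutant muscle 3 of the 7 probe sets were called (1 higher, 2 lower), and in control muscle 4 were (2 higher, 2 lower). Over all tested probe sets the share called was 26.3% in mutant muscle (13.1% higher and 13.3% lower) and 29.3% in control muscle (14.9% higher and 14.4% lower). Scn3b was also higher in denervated mutant than in denervated control muscle, the single member probe set of 7 called between genotypes there, where 1.83% of all tested probe sets were called (0.806% higher and 1.02% lower). All 7 probe sets passed the filter, which asked for a signal above the array's own median on at least 2 arrays. The dimmer Scn3b probe set passed it through 4 denervated arrays alone, so its call is a description.

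**Figure D1:**
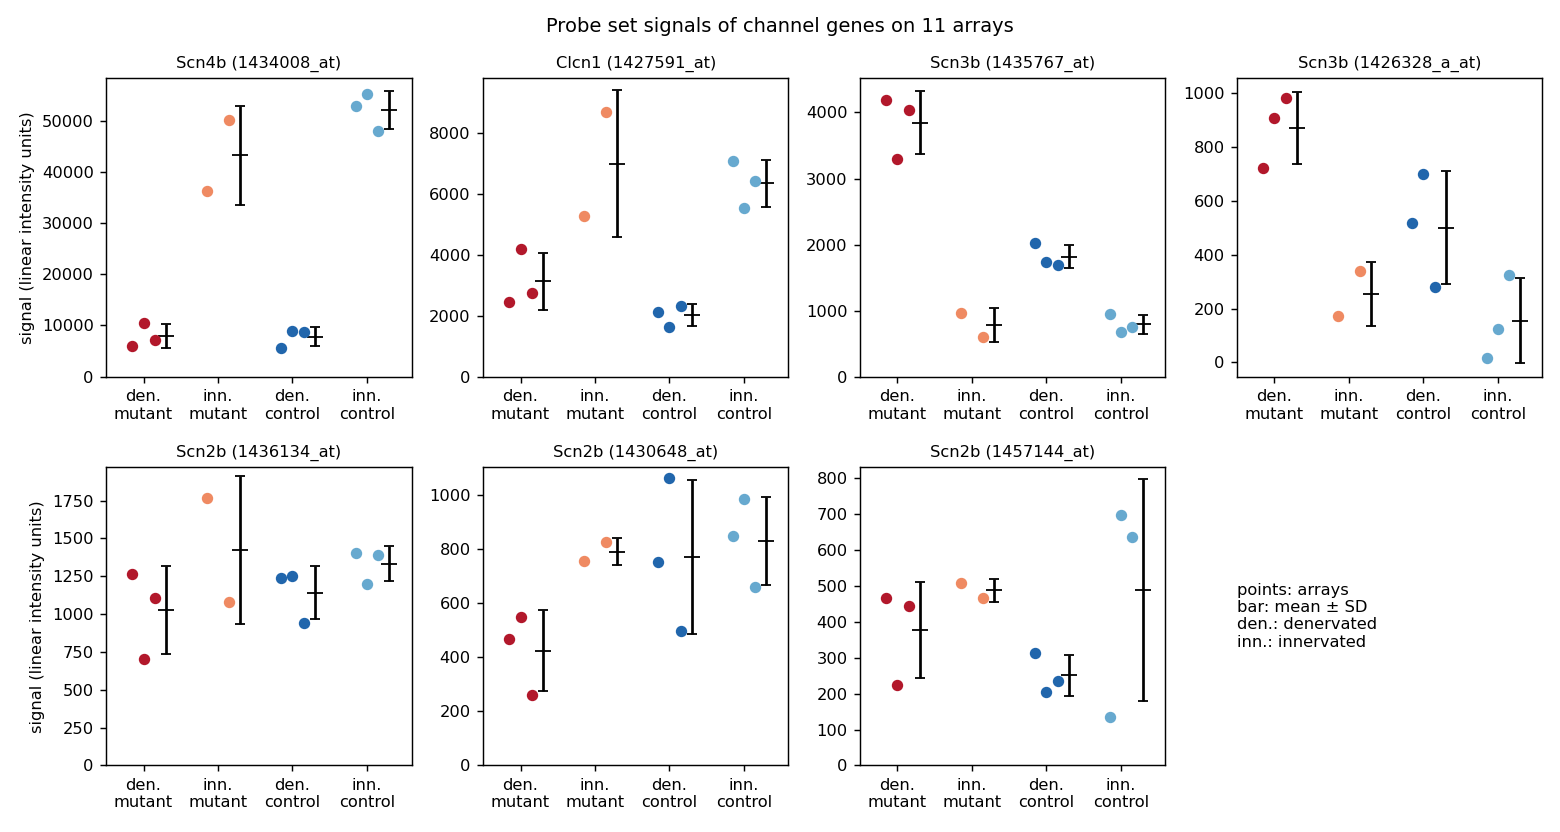
Signals of the 7 probe sets on each of the 11 arrays (vertical axis, linear intensity units, a separate scale per panel) for denervated mutant, innervated mutant, denervated control and innervated control muscle; points are arrays and bars are mean ± SD. Scn4b lies between 5698.3 and 10558.4 on the denervated arrays and between 36307.5 and 55268.9 on the innervated ones, and the Scn3b probe set 1435767_at is highest in denervated mutant muscle.

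Scn4b encodes the beta-4 subunit, which is disulfide-linked to its alpha subunit and is known from cerebellar neurons for promoting resurgent sodium current. Its probe set 1434008_at read 5992.1, 10558.4 and 7129 on the denervated mutant arrays, against 36307.5 and 50047.8 on the innervated mutant arrays. The control arrays read 5698.3, 8983.3 and 8807.6 when denervated, against 52787.9, 55268.9 and 48050.1 when innervated. Every denervated array lay below every innervated array, and within each state the genotypes overlapped. The fall was 5.55-fold in mutant muscle (log2 change -2.47 ± 0.25 SE, limma adjusted p = 1.37e-05, n = 3 and 2) and 6.76-fold in control muscle (log2 change -2.76 ± 0.22 SE, limma adjusted p = 1.39e-06, n = 3 each). Of the 12214 genes tested, 0.868% had a lower log2 change than Scn4b in mutant muscle and 0.573% in control muscle. The genotypes did not differ detectably in denervated muscle (log2 difference 0.00, 95% interval -0.48 to 0.48) or in innervated muscle (-0.29, interval -0.82 to 0.25).

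Clcn1, the chloride channel of the fibre membrane, was measured by probe set 1427591_at. It read 2466.4, 4200.5 and 2733.2 in denervated mutant muscle, against 5279.4 and 8688.3 in innervated mutant muscle. In control muscle it read 2109.2, 1615.6 and 2315.7 when denervated, against 7067.1, 5544.2 and 6418.4 when innervated. Denervated and innervated arrays did not overlap in either genotype. Clcn1 fell 2.22-fold in mutant muscle (log2 change -1.15 ± 0.26 SE, limma adjusted p = 0.00604, n = 3 and 2) and 3.15-fold in control muscle (log2 change -1.66 ± 0.23 SE, limma adjusted p = 0.000155, n = 3 each). The call in mutant muscle rests on innervated mutant 2: without that array the log2 change was -0.79 (limma adjusted p = 0.0996). All 3 denervated mutant arrays lay above all 3 denervated control arrays, with means of 3133 ± 934 in mutant and 2014 ± 360 in control (SD, n = 3 each). That difference of 0.61 ± 0.23 (log2, SE; 95% interval 0.10 to 1.12) did not pass over all probe sets (limma adjusted p = 0.31), and the exact two-sided permutation test gave p = 0.1, the smallest it allows with 3 against 3 arrays.

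The promoters of the falling pair and of Scn2b, which lies next to Scn4b on mouse chromosome 9 with no protein-coding gene between them in GRCm38.p6, are shown because neighbouring and jointly falling genes can be compared in them. Each window covers 250 bases before to 50 after a gene start in RefSeq (GRCm38.p6), all on the plus strand, and capitals mark matches on either strand to an E-box (CANNTG, read by myogenic factors), to the RUNX core TGTGGT, or to the MEF2 consensus. Clcn1 is chr6:42286435-42286734, Scn4b is chr9:45138374-45138673 and Scn2b is chr9:45117626-45117925.
Clcn1: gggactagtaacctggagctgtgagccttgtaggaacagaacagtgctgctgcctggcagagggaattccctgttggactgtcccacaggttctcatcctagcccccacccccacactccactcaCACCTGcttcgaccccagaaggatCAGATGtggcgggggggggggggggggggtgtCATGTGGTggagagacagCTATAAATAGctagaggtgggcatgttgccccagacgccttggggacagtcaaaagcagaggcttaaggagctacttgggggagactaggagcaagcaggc
Scn4b: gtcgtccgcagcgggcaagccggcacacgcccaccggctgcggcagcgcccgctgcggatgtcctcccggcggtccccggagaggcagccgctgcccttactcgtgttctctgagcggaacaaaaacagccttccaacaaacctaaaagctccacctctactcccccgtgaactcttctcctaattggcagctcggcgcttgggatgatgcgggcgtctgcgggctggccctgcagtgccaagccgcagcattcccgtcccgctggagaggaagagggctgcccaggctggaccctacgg
Scn2b: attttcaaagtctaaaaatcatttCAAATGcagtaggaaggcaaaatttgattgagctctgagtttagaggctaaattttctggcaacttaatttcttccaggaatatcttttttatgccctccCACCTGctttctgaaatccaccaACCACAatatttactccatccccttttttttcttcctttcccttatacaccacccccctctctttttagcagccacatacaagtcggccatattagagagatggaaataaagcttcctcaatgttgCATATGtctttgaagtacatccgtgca

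The Clcn1 window held 3 E-boxes, 1 RUNX core that overlaps the E-box at -69, and 1 MEF2 match (CTATAAATAG) that begins at -51 relative to the start. The Scn2b window held 3 E-boxes and 1 RUNX core and no MEF2 match, and these letters were not found in the Scn4b window. Among 32851 mouse promoters of the same length, 72.3% held an E-box, 16.8% a RUNX core and 0.557% a MEF2 match. Clcn1 and Scn4b, which both fell, had different matches in these windows. Scn3b had no entry in the promoter table.

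Scn3b encodes the beta-3 subunit, which is not covalently bound to its alpha subunit and is known mainly from neurons and the heart. Its brighter probe set, 1435767_at, read 4195.5, 3300.1 and 4043.4 in denervated mutant muscle, against 969 and 597.5 in innervated mutant muscle. The control arrays read 2019.1, 1739.3 and 1694 when denervated, against 947.5, 673.1 and 755.8 when innervated. The 3 denervated mutant arrays were the highest of all 11, the 3 denervated control arrays came next, and the innervated genotypes overlapped. Scn3b rose 4.94-fold with denervation in mutant muscle (log2 change 2.30 ± 0.23 SE, limma adjusted p = 1.43e-05, n = 3 and 2) and 2.28-fold in control muscle (log2 change 1.19 ± 0.21 SE, limma adjusted p = 0.000813, n = 3 each). Within denervated muscle the mutant level was 2.10-fold that of control (log2 difference 1.07 ± 0.21 SE, limma adjusted p = 0.0177, n = 3 each), and the exact two-sided permutation test gave p = 0.1, the smallest it allows. Innervated muscle showed no detectable genotype difference (-0.04, 95% interval -0.55 to 0.46).

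The genotype call for Scn3b was close to the threshold. Leaving out denervated mutant 1 or 3, or any 1 of the 3 denervated control arrays, ended it (limma adjusted p from 0.0505 to 0.0941), although the log2 difference then stayed between 1.005 and 1.149. The interaction (how much further the mutant change lay above the control change) was 1.11 ± 0.31 (log2, SE; 95% interval 0.44 to 1.79). It did not pass over all probe sets (limma adjusted p = 0.265, unadjusted p = 0.00356), so a larger rise of Scn3b in mutant muscle was not established by that test. The comparisons share arrays: the denervated mutant arrays enter both the denervation change in mutant muscle and the genotype difference.

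**Figure D2:**
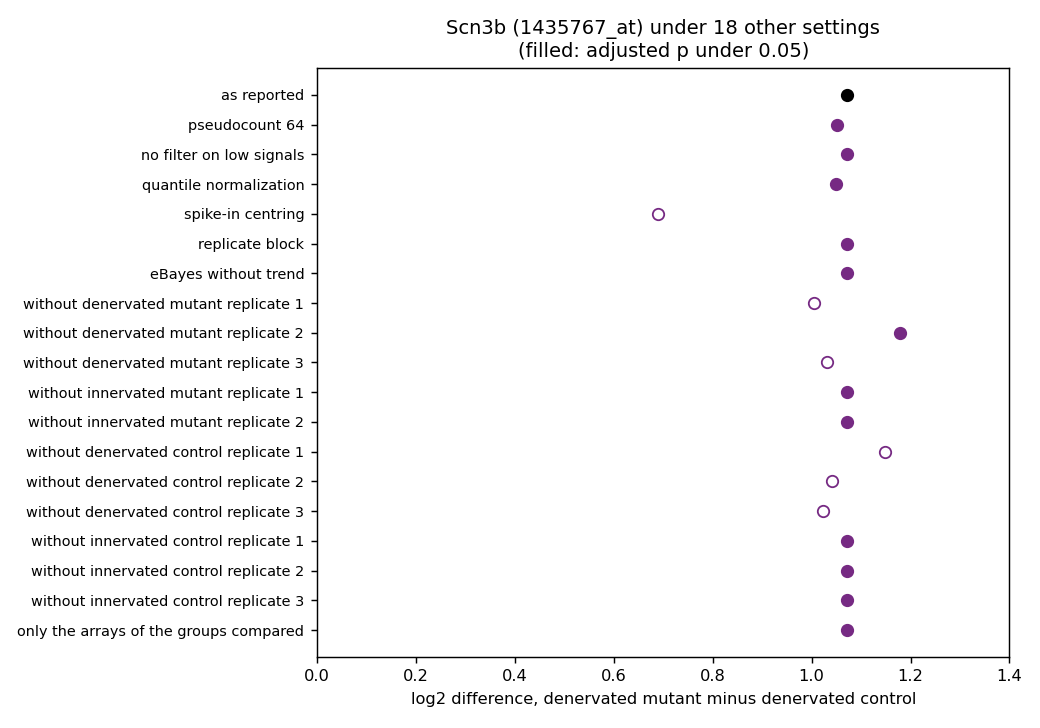
Log2 difference of the Scn3b probe set 1435767_at between denervated mutant and denervated control muscle (horizontal axis) as reported and under 18 other settings (rows); filled points have a limma adjusted p under 0.05. The difference lies above 0 in each setting shown, between 0.69 with spike-in centring and 1.18, and 6 of the 18 points are open.

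The second Scn3b probe set, 1426328_a_at, was dim. It read 719.7, 905.4 and 981 in denervated mutant muscle, against 170.6 and 339.2 in innervated mutant muscle. In control muscle it read 518.9, 700.3 and 281.6 when denervated, against 16.1, 122.5 and 325.8 when innervated. The groups overlapped in control muscle and did not in mutant muscle, and the denervated mutant arrays were again the highest. All 5 innervated readings were no brighter than the brightest trp control reading, from bacterial RNAs that spanned 13.8 to 440 on these arrays, so the size of its changes rests on background. The log2 change was 1.77 ± 0.78 (SE) in mutant muscle (limma adjusted p = 0.115) and 2.08 ± 0.70 (SE) in control muscle (limma adjusted p = 0.0401). Without innervated control 1, which read 16.1, the control change was 1.16 (limma adjusted p = 0.122). The call also ended without innervated control 2, denervated control 1 or 2, or any 1 denervated mutant array (limma adjusted p from 0.0505 to 0.138). It ended too with the replicate number as a block in the 6 control arrays (limma adjusted p = 0.0886). In all, 11 of the 19 alternatives ended it. The mutant change passed in 3 of 18 alternatives: without innervated control 1 (limma adjusted p = 0.0239), with spike-in centring (0.0318) and with only the mutant arrays fitted (0.00556). Its genotype difference in denervated muscle was 0.86 (95% interval -0.66 to 2.37).

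Scn2b encodes the beta-2 subunit, which is disulfide-linked to its alpha subunit and is known mainly from the central nervous system. Its brightest probe set, 1436134_at, read 1266.6, 702.8 and 1104.1 in denervated mutant muscle, against 1767.4 and 1077.5 in innervated mutant muscle. The control arrays read 1235.5, 1248.9 and 938.4 when denervated, against 1405.7, 1200.4 and 1390.7 when innervated. The 4 groups overlapped. Its log2 change with denervation was -0.47 in mutant muscle (95% interval -1.07 to 0.14, limma adjusted p = 0.242) and -0.23 in control muscle (95% interval -0.77 to 0.31, limma adjusted p = 0.542). These intervals still allow a fall of about the size of the lower bound. The probe set 1430648_at averaged 425 ± 150 in denervated mutant (SD, n = 3), 790 ± 49.9 in innervated mutant (SD, n = 2), 770 ± 284 in denervated control (SD, n = 3) and 831 ± 163 in innervated control muscle (SD, n = 3). All 3 denervated mutant arrays lay below both innervated mutant arrays, and the control groups overlapped. Its log2 change was -0.93 in mutant muscle (95% interval -1.74 to -0.13, limma adjusted p = 0.0826) and -0.15 in control muscle (95% interval -0.88 to 0.57, limma adjusted p = 0.772). Between the denervated genotypes, whose arrays overlapped, it differed by -0.83 (95% interval -1.55 to -0.11), which did not pass (limma adjusted p = 0.338). The third, 1457144_at, lay above the median on 3 of 11 arrays and had log2 changes of -0.42 in mutant muscle and -0.65 in control muscle, neither past the test. Without innervated control 1, which read 134.1 against 697.2 and 635.3 on the other innervated control arrays, the control change of this probe set was -1.37 (limma adjusted p = 0.0306).

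**Figure D3:**
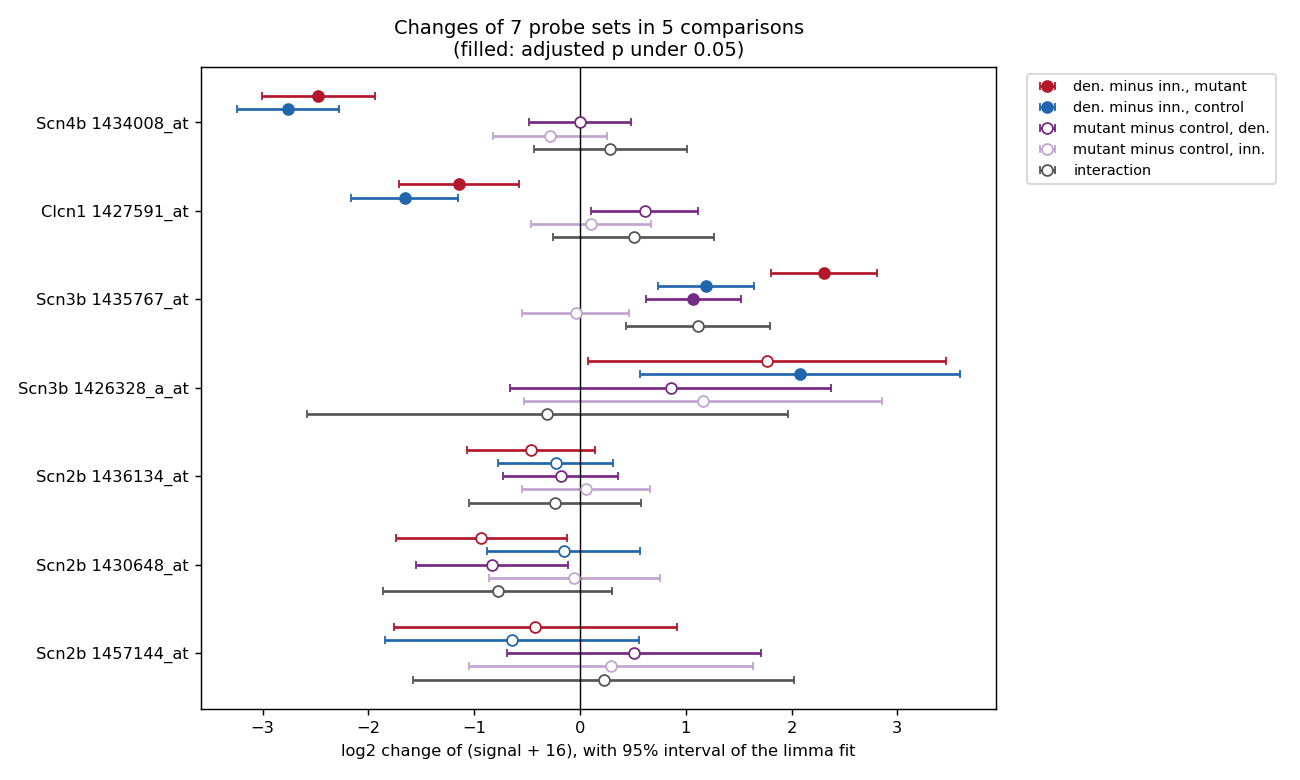
Log2 changes of the 7 probe sets (rows) in 5 comparisons (colours), with 95% intervals of the limma fit; filled points have an adjusted p under 0.05 over all tested probe sets. Scn4b and Clcn1 lie left of 0 with denervation in both genotypes, Scn3b lies right of 0, and the intervals of the Scn2b probe sets 1436134_at and 1457144_at span 0 in each comparison shown.

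Between genotypes in innervated muscle limma called 0 of the 7 member probe sets, and 0 of them had an unadjusted p under 0.05. Over all 26170 probe sets 0% were called (1030 had an unadjusted p under 0.05). Between genotypes in denervated muscle 3 of the 7 had an unadjusted limma p under 0.05, beside 2958 of all probe sets. For the interaction limma called 0 of the 7, of which 1, Scn3b 1435767_at, had an unadjusted p under 0.05, where 0.248% of all probe sets were called (65 in number, 0.0841% higher and 0.164% lower, with 2017 at an unadjusted p under 0.05). The interaction of Clcn1 was 0.51 (95% interval -0.25 to 1.27) and that of Scn4b 0.29 (95% interval -0.44 to 1.007), so differences of these sizes between the genotypes' denervation changes were not detectable with these arrays.

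The size of these changes depends on scaling. The bacterial and phage RNAs spiked in at hybridisation read lower on the denervated arrays (mean log2 signal 13.145 to 13.738) than on the innervated ones (13.831 to 14.298). Centring the arrays on them moved the median of all probe sets to 0.38 in mutant and 0.81 in control muscle. It left Scn4b at -1.998 and -1.926 and Scn3b (1435767_at) at 2.78 and 2.02 in mutant and control muscle, each past the test. Clcn1 was then at -0.67 in mutant muscle (limma adjusted p = 0.11) and at -0.82 in control muscle (limma adjusted p = 0.0169). The 3 Scn2b probe sets turned to 0.60, 0.68 and 0.19 in control muscle, none past the test, so their sign is not settled. The same centring moved the median between genotypes in denervated muscle to -0.39, and Scn3b there to 0.69 (limma adjusted p = 0.117).

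Some markers of other cells changed with denervation too. Fewer cells of a type and less RNA per cell cannot be told apart in these bulk samples. The 6 fibre markers, led by Ckm and Acta1, were present throughout, with a summed signal of 857499 to 1074500 in denervated mutant, 1317020 to 1467990 in innervated mutant, 840711 to 1203200 in denervated control and 1254200 to 1403230 in innervated control muscle. Their median log2 change was -0.54 in mutant muscle (0 higher, 5 lower) and -0.40 in control muscle (0 higher, 3 lower), against -2.47 and -2.76 for Scn4b. The median over all tested genes was -0.011 in mutant and -0.005 in control muscle. Of these 12214 genes 30.5% were called in mutant muscle (2037 higher, 1690 lower) and 34.5% in control muscle (2205 higher, 2003 lower).

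Neuronal markers, relevant to Scn2b and Scn3b, were near background: 1 of 8 passed the filter, Map2, and their summed signal was 1635 to 1724 in denervated mutant, 1597 to 2047 in innervated mutant, 1734 to 2249 in denervated control and 1700 to 2109 in innervated control muscle. The sums of denervated mutant muscle lay just below those of denervated control muscle, and the other ranges overlapped. Of 7 Schwann cell markers 1 (Ngfr) was higher and 2 (Mbp and Pmp22) lower with denervation in each genotype, and their summed signal was 13516 to 17102 in denervated mutant, 31973 to 34143 in innervated mutant, 11058 to 13387 in denervated control and 22588 to 26470 in innervated control muscle. Of 6 macrophage markers 5 rose in mutant and 3 in control muscle, with sums of 80503 to 94665 in denervated mutant, 12270 to 12735 in innervated mutant, 54276 to 93863 in denervated control and 14529 to 17611 in innervated control muscle. The macrophage sums overlapped in part between the genotypes in denervated muscle. The median interaction of the 6 macrophage markers was 0.82. Among them 1 (Ptprc) passed the interaction test, at 1.76 (limma adjusted p = 0.0259), as did 0.262% of all genes. Of 5 endothelial markers 2 fell in mutant and 4 in control muscle, of 5 fibroblast markers 1 (Col3a1) fell in mutant and 0 in control muscle (limma, with 1 at an unadjusted p under 0.05), and of 3 tested cardiac markers 1, Gja1, fell in each. Beside these counts from short lists, 30.5% of all genes were called in mutant and 34.5% in control muscle, so the counts are descriptions. The part of these cells in the changes of Scn4b, Clcn1 and Scn3b was not tested.

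Among the other channel genes, none of the 7 tested was called on its brightest probe set in any of the 5 comparisons (limma), and Ostm1 in control muscle, Clcn3 in mutant muscle and Clcn5 between the innervated genotypes had an unadjusted p under 0.05. Of 8 other sodium channel alpha subunits with a probe set, only Scn7a, a sodium-sensing channel of glia and other cells, passed the filter. Its brightest probe set changed by -0.23 in mutant (limma adjusted p = 0.533) and 0.47 in control muscle (limma adjusted p = 0.135). Another of its probe sets rose by 0.59 in mutant (limma adjusted p = 0.0482) and 0.53 in control muscle (limma adjusted p = 0.0438). Scn1a, Scn2a, Scn3a, Scn8a, Scn9a, Scn10a and Scn11a, which carry sodium currents in neurons, had no probe set above the filter. Of 6 tested genes of the CLC family and its partners, the median log2 change was 0.08 in both genotypes. Clcn3, an intracellular chloride-proton exchanger, had a probe set with log2 changes of -0.62 in mutant (limma adjusted p = 0.00488) and -0.51 in control muscle (limma adjusted p = 0.00682). Another of its probe sets changed by -0.485 in mutant and -0.406 in control muscle (limma adjusted p = 0.0305 and 0.0369). A dim one passed in mutant muscle alone (-0.90, limma adjusted p = 0.0492). Its brightest probe set did not pass, and each tested Clcn3 probe set had a negative change in both genotypes. With spike-in centring 2 of the 6 genes were higher in mutant and 6 in control muscle. The same centring called 6972 of all 26170 tested probe sets higher and 1009 lower in mutant muscle (limma). In control muscle it called 14881 higher and 714 lower, so these counts of the 6 genes are descriptions.

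**Figure D4:**
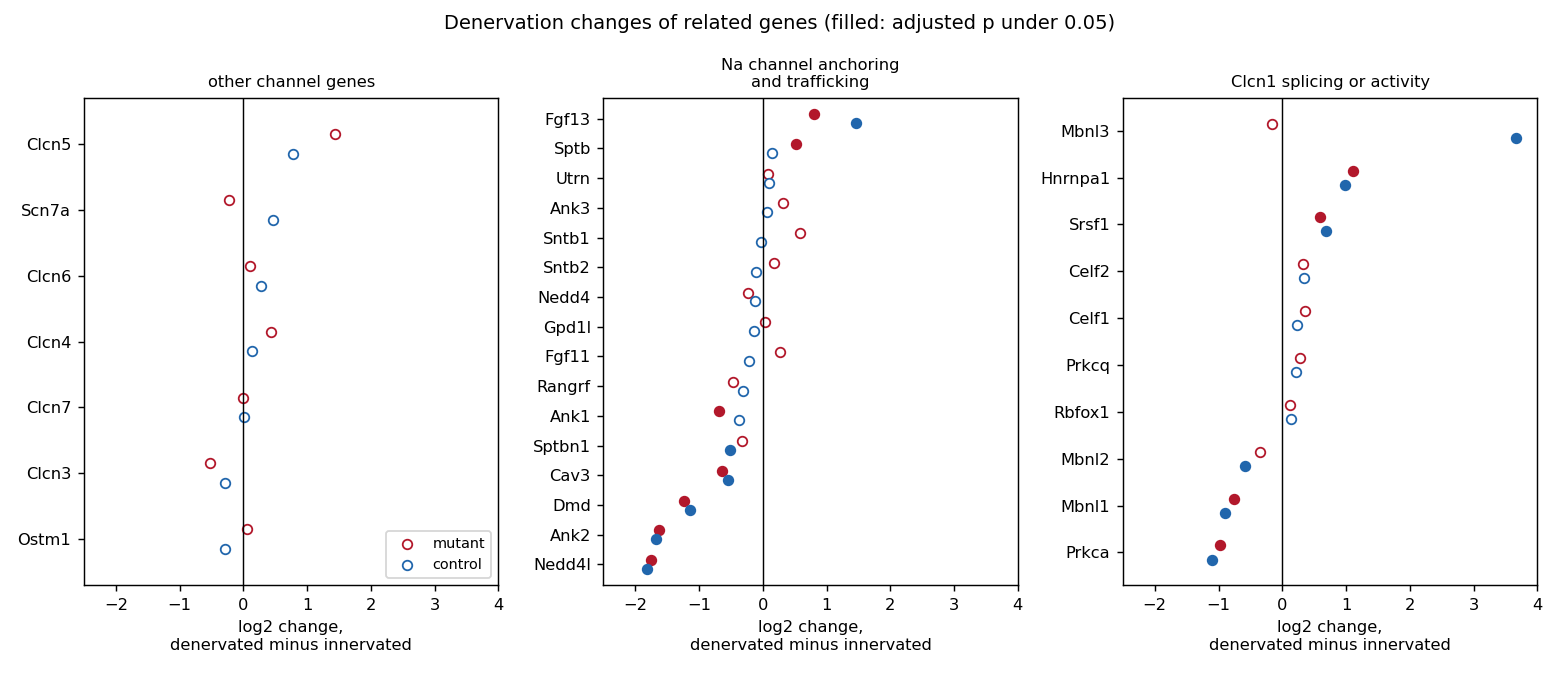
Log2 change with denervation (horizontal axis) of the tested genes of 3 related lists, each by its brightest probe set, in mutant and control muscle; filled points have a limma adjusted p under 0.05. Other channel genes lie between -0.52 and 1.44 with no filled point, while Nedd4l, Ank2 and Dmd fell and Fgf13 rose in both genotypes.

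Of 16 tested genes that anchor or traffic sodium channels, 2 rose and 5 fell in mutant muscle and 1 rose and 5 fell in control muscle, with medians of -0.10 in mutant and -0.17 in control muscle. Over all 12214 genes, each by its brightest probe set, 30.5% were called in mutant and 34.5% in control muscle, and the share in the list was close to this in control muscle. Sptbn1, a spectrin, counts among the control falls by its brightest probe set (-0.51), but its next brightest rose by 2.67 in mutant and 2.10 in control muscle (limma adjusted p = 8.45e-07 and 1.74e-06), so its direction is not settled. With spike-in centring 3 genes of the list rose and 3 fell in mutant muscle, and 8 rose and 2 fell in control muscle. Of all 26170 tested probe sets that centring called 6972 higher and 1009 lower in mutant muscle (limma). In control muscle it called 14881 higher and 714 lower, so the list counts under it are descriptions. Nedd4l, a ubiquitin ligase that removes sodium channels from the membrane, fell in both genotypes, with log2 changes of -1.75 in mutant and -1.82 in control muscle (limma adjusted p = 2.99e-05 and 5.81e-06). Ank2, an ankyrin that ties membrane channels to spectrin, likewise changed by -1.63 in mutant and -1.67 in control muscle (limma adjusted p = 6.36e-05 and 1.49e-05). Dmd, dystrophin, holds the syntrophin complex that binds the muscle sodium channel. It changed by -1.24 in mutant and -1.14 in control muscle (limma adjusted p = 0.00116 and 0.000774). With spike-in centring its control change of -0.31 did not pass (limma adjusted p = 0.245). Between denervated genotypes its brightest probe set differed by -0.04 (limma adjusted p = 0.97). A dimmer Dmd probe set was lower in mutant there (-0.85, limma adjusted p = 0.018), and its other tested probe sets did not pass.

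Fgf13, an intracellular FGF homologue that binds the tail of sodium channel alpha subunits, went the other way. It read 29599.7, 25411.2 and 28772 in denervated mutant muscle, against 17635.5 and 14431 in innervated mutant muscle. In control muscle it read 41119.5, 45403.6 and 40547.9 when denervated, against 14575.4, 16489.1 and 15157 when innervated. The denervated groups did not overlap, with mutant below control. Fgf13 rose by 0.80 ± 0.14 (log2, SE) in mutant and 1.46 ± 0.13 in control muscle (limma adjusted p = 0.00101 and 2.44e-06). It was lower in denervated mutant than in denervated control muscle, at a log2 difference of -0.60 (limma adjusted p = 0.0265), the opposite direction to Scn3b, and leaving out any 1 of denervated mutant 1, 2 or 3 or denervated control 1 or 2 ended that call (limma adjusted p from 0.0683 to 0.157). The interaction of Fgf13 was -0.65 (limma adjusted p = 0.277). These values are of its brightest probe set. A dimmer Fgf13 probe set also rose in control muscle (1.44, limma adjusted p = 0.000714). Its mutant change of 0.44 and its genotype difference in denervated muscle of -0.67 did not pass (limma adjusted p = 0.268 and 0.283).

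Of 10 genes that regulate Clcn1 splicing or activity, 2 rose and 2 fell in mutant muscle and 3 rose and 3 fell in control muscle, with medians of 0.20 in mutant and 0.22 in control muscle, beside the 30.5% of all genes called in mutant and 34.5% in control muscle. One of the control rises is that of Mbnl3, described separately. Celf1 and Celf2 did not pass on their brightest probe sets, while some of their dimmer ones rose and others did not pass. A Celf1 probe set rose by 0.87 in mutant and 1.11 in control muscle (limma adjusted p = 0.00104 and 4.85e-05). One of Celf2 rose by 1.13 in mutant and 0.89 in control muscle (limma adjusted p = 0.000388 and 0.000734). Mbnl1, a splicing factor needed for the adult Clcn1 transcript, fell, with log2 changes of -0.76 in mutant and -0.91 in control muscle (limma adjusted p = 0.00127 and 0.000105). Prkca, a protein kinase C isoform, a family that inhibits Clcn1, changed by -0.98 in mutant and -1.11 in control muscle (limma adjusted p = 0.00174 and 0.000253). Both calls ended with spike-in centring (Mbnl1 at -0.28 in mutant and -0.07 in control, Prkca at -0.51 in mutant and -0.27 in control). Among the 10 genes that centring left 6 rises and 0 falls in mutant and 7 rises and 0 falls in control muscle (limma). Over all 26170 tested probe sets it called 6972 higher and 1009 lower in mutant muscle. In control muscle it called 14881 higher and 714 lower, so these list counts are descriptions. Hnrnpa1, an RNA-binding splicing repressor, rose by 1.12 in mutant and 0.98 in control muscle (limma adjusted p = 0.00162 and 0.00148).

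Mbnl3 is a muscleblind relative expressed in immature muscle cells. Its brightest probe set read 214, 149.6 and 179.1 in denervated mutant muscle, against 331.3 and 120.6 in innervated mutant muscle. The control arrays read 1113.6, 1926.5 and 1499.5 when denervated, against 328.6, 142.8 and 13.2 when innervated. Only the denervated control readings were brighter than the brightest trp control reading, and the probe set passed the filter through that group alone, so its changes are a description and their size rests on background. The log2 change was -0.16 in mutant muscle (limma adjusted p = 0.908) and 3.67 in control muscle (limma adjusted p = 0.00223). Without innervated control 3, which read 13.2, the control change was 2.67 (limma adjusted p = 0.00215). The genotype difference in denervated muscle of -2.93 did not pass (limma adjusted p = 0.0759), nor did the interaction of -3.83 (limma adjusted p = 0.287). Without innervated control 1 or 3 the genotype difference passed (limma adjusted p = 0.0393 and 0.00598). The other tested Mbnl3 probe sets changed by 0.99 and 0.68 in control muscle, neither past the test (limma adjusted p = 0.0688 and 0.405).

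The genes whose log2 signals followed each member most closely over the 11 arrays were found by Pearson correlation among 12210 genes. The arrays share 4 groups, so these values describe the pattern and carry no p. Scn4b was followed by Adk (adenosine kinase), Map2k6 (a kinase of the p38 pathway) and Pknox2, each at r = 0.988, and these genes changed by -1.75, -3.47 and -1.04 in mutant and by -1.86, -3.66 and -1.11 in control muscle (log2). Clcn1 was followed by Etfa and Acadl, which take part in fatty acid oxidation (r = 0.975 and 0.973), and by Kctd15 (r = 0.974). Scn3b was followed by Orm2, an acute-phase plasma protein (r = 0.983), 1700017B05Rik (r = 0.983) and Dpy19l1 (r = 0.980), whose log2 differences between denervated mutant and denervated control muscle were 2.87, 0.32 and 0.37. Scn2b was followed less closely, by Gm31087 (r = 0.916), Rassf10 (r = 0.904) and Wnt6 (r = 0.904).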

How the data were processed

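The deposited values are probe set signals, linear intensity, which the authors had brought to 1 trimmed mean per array (2500.02 with 2% cut from each end, as the values show). The software and any background step are not given in the sources used here. Signals were used as log2(signal + 16), without further normalization because the trimmed means differed by less than the 10% tolerance set. Probe sets above their array's median on at least 2 arrays were kept; without the 64 Affymetrix controls these numbered 26170 (12214 genes, each by its brightest kept probe set). The annotation gave 34958 probe sets 1 gene symbol and 932 several, and 9211 were unlisted; of the gene IDs of those with 1 symbol, 34754 matched the RefSeq table (GRCm38.p6).

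Group means over the 11 arrays were fitted with limma 3.58.1 (R 4.3.3, eBayes with trend), and p-values were adjusted by Benjamini-Hochberg across them for each of 5 comparisons, at 0.05; the pipeline was tested on simulated data. Named were the member probe sets, the 3 genes closest to each member by correlation, and from each list up to 4 genes with the smallest p in control muscle. Other genes of the marker lists were named after their values were seen, as were Sptbn1, Celf1 and Celf2. The same holds for the dimmer probe sets given for Runx1, Scn7a, Clcn3, Fgf13, Dmd and Mbnl3. Members and lists were chosen with earlier results of these data known. Equal replicate numbers correlated at 0.11, 0.22 and 0.30 between denervated and innervated control arrays (deviations from group means). Between other groups they correlated at -0.18 to 0.10. The labels state no pairing, and the reported fits used none. Replicate number entered only alternative fits, as a block over all arrays or in the control arrays alone. Alternatives were another pseudocount (64), no filter, quantile normalization, spike-in centring, a replicate block, eBayes without trend, only the arrays compared, and each array left out. The spike-in, quantile, block and leave-one-out values of list genes were added after seeing the data. Promoter sequences are from a table made from RefSeq (GRCm38.p6), in which 3 of the 4 measured members were matched.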

Additional observations from a re-analysis of the deposited data

How the results depend on the processing

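Of 630 recomputed log2 changes of the 7 probe sets, 607 kept their side of the threshold and, where called, their direction; 19 lost a call, 4 gained one and 0 reversed. Scn4b and the brighter Scn3b probe set kept their denervation calls in both genotypes under every alternative run, and so did Clcn1 in control muscle. The number of member probe sets called between genotypes in denervated muscle was 1, but 0 with spike-in centring, and 0 to 1 when single arrays were left out. It was 2 to 4 with denervation in mutant muscle (3 as reported) and 3 to 4 in control muscle (4 as reported) when single arrays were left out. The fit with a replicate block over all arrays left these counts at 3, 4 and 1, and the block in the 6 control arrays alone, chosen after seeing the data, gave 3 in control muscle and changed no other member's call there than that of the dim Scn3b probe set. With the block the genotype call of Fgf13 ended (limma adjusted p = 0.0564). Over all probe sets, spike-in centring called 15595 with denervation in control muscle (14881 up, against 3892 of 7670 as reported), 7981 in mutant muscle (6972 up, against 3416 of 6894) and 1413 between genotypes in denervated muscle (54 up, against 211 of 478). Without trend the count between genotypes in denervated muscle was 279 and the interaction count 10 (65 as reported). With single arrays left out these counts were 223 to 638 and 16 to 108, mutant denervation gave 4337 to 8082, and innervated genotypes 0 to 12. Leaving out 1 innervated mutant array leaves a lone sample, assumed to vary like the other groups. Signals near the trp range limit Scn2b 1457144_at and Scn3b 1426328_a_at.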
